A study of Mus musculus with 21 samples.

Results

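The genes Sox5, Sox6 and Sox9 encode the transcription factors known as the chondrogenic trio. They were taken from the deposited table of normalized values by gene symbol and make up 3 of its 26852 genes. SOX9, a SOXE factor, is the master regulator of cartilage: it binds DNA through an HMG box and is needed for the expression of the cartilage matrix genes Col2a1 and Acan. SOX5 and SOX6 are closely related SOXD factors that lack a transactivation domain of their own and act beside SOX9 on cartilage enhancers. In the adult skeleton these factors are best known from growth plate and articular cartilage, and Sox9 is also found in skeletal progenitor cells.

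The 21 libraries are bulk RNA-seq of Nes-low mesenchymal cells sorted from the bone marrow of mice. All hosts were NSG mice, an immunodeficient strain, with green fluorescent protein driven by Nestin, aged 8 to 12 weeks at transplantation and not conditioned beforehand. The 3 control libraries (ctrl) came from hosts without leukemia. The other 18 came from hosts carrying HL60 or ML1, a pair of human acute myeloid leukemia cell lines that had been made to release sLP-mCherry, a red fluorescent protein taken up by cells near them. At the early stage, mesenchymal cells that had taken up the protein (early ch+) and cells that had not (early ch-) were sorted apart, with 6 libraries each, and 6 further libraries were from the late stage. Each of these 3 groups held 3 libraries with HL60 and 3 with ML1. The paper set the stages by human engraftment, slight at the early stage and heavy at the late stage. It took all Nes-low cells of the late stage to be in contact with leukemic cells, and the late titles carry no ch+ or ch- label. The 3 ML1 late libraries carry the treatment entry of hosts without a graft, while their titles and time point say late, and they were kept as late. Early ch- and early ch+ cells were described as taken from the same marrows, so the early libraries need not be independent of each other. No label links a library of one early group to its counterpart in the other. The title numbers of the early groups run in parallel within each line, but nothing says that this marks shared mice, so no pairs were formed and all were fitted and permuted as independent. Nothing beyond the numbers in the titles says that libraries came from separate animals, without which the p-values would measure only the spread between these samples. The extraction text of the labels speaks of a CD31 sort, although the source is given as Nes-low cells. It also says that human and mouse blood cells were removed with beads, and the paper adds a stain for CD45 and for the red cell antigen Ter119 before the sort.

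Nes itself had a mean log2 value of 7.39 ± 0.24 in ctrl (SD, n = 3), 7.32 ± 0.24 in early ch-, 7.30 ± 0.38 in early ch+ and 7.30 ± 0.52 in late (n = 6 each). Pecam1, which encodes CD31, was low, with means of 5.59, 5.54, 5.74 and 4.87 in the same order. Ptprc, which encodes the blood cell antigen CD45, had means of 2.56 in ctrl, 4.21 in early ch-, 4.79 in early ch+ and 2.43 in late. All values are regularized log2 values as deposited. They are not counts. The paper states only a typical read yield, and how deeply each library was sequenced is unknown. On the linear scale the values of a library summed to between 11208179 and 14743456 in the 15 ctrl and early libraries, and to between 7264989 and 9022185 in the 6 late libraries. A single gene, CT010467.1, annotated as ribosomal RNA, made up 26.5% to 38.7% of the sum in ctrl and early libraries and 16.8% to 26.2% in late.

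Sox9 (ENSMUSG00000000567) lies on chromosome 11 of GRCm38 at chr11:112782224-112787760 on the plus strand, with no other annotated gene over it. Sox5 (ENSMUSG00000041540) spans chr6:143828425-144781977 on the minus strand and Sox6 (ENSMUSG00000051910) chr7:115470872-116038796 on the minus strand. The table holds 5 further annotated genes inside the span of Sox5 and 2 inside that of Sox6. The 3 on the opposite strand of Sox5 were low, with mean log2 values of 1.57 (Sox5os1), -1.54 (Sox5os2) and -0.95 (Sox5os3). The pair on the same strand, Gm44068 and Sox5it, had means of 3.02 and -0.66. Opposite Sox6, Gm45025 had a mean of 0.03 and Sox6os of -0.65. All 3 members of the trio passed the filter on low values, a mean log2 value of at least 3.32 over the libraries, as did 12976 genes in all.

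Sox9 was high in ctrl and early ch- libraries and low in early ch+ and late libraries. Its log2 values were 9.71, 9.44 and 9.54 in the 3 ctrl libraries. In early ch- they were 9.71, 9.46 and 8.55 with HL60 and 8.85, 8.79 and 8.72 with ML1. The early ch- values with HL60 thus reached into the ctrl range, and those with ML1 lay below it and close together. In early ch+ the values were 8.12, 7.65 and 6.57 with HL60 and 7.0, 6.47 and 7.41 with ML1. In late they were 7.60, 8.20 and 7.39 with HL60 and 7.46, 5.93 and 7.34 with ML1. Every early ch+ and every late library lay below every ctrl and every early ch- library, while early ch+ and late covered much the same range. How many of all genes separate in this way between groups was not counted, here or for the statements of overlap below.

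Sox5 followed another pattern and was high in ctrl and early ch+. Its log2 values were 9.05, 8.94 and 9.03 in ctrl. In early ch+ they were 9.04, 9.37 and 8.84 with HL60 and 9.45, 9.11 and 8.89 with ML1. The early ch+ libraries lay on both sides of the ctrl libraries with either cell line. In early ch- the values were 8.57, 7.60 and 5.84 with HL60 and 7.10, 7.90 and 7.83 with ML1. In late they were 7.13, 7.50 and 7.20 with HL60 and 6.60, 6.74 and 6.68 with ML1. Every early ch- and late library lay below every ctrl and early ch+ library. Early ch- and late overlapped, and HL60 replicate 529 of early ch- had the lowest Sox5 value of all 21 libraries.

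Sox6 was highest in ctrl, with log2 values of 8.58, 8.72 and 8.56. In early ch- the values were 7.97, 7.39 and 7.83 with HL60 and 6.39, 7.89 and 7.53 with ML1. In early ch+ they were 6.94, 7.73 and 7.64 with HL60 and 7.75, 8.38 and 6.95 with ML1. The early groups overlapped with each other, and all 12 early libraries lay below all ctrl libraries. In late the values were 6.59, 7.17 and 6.65 with HL60 and 6.82, 5.50 and 5.67 with ML1. Of the 36 pairs of a late and an early ch- library, Sox6 was higher in early ch- in 32, and of the 36 pairs of a late and an early ch+ library it was higher in early ch+ in 34.

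**Figure D1:**
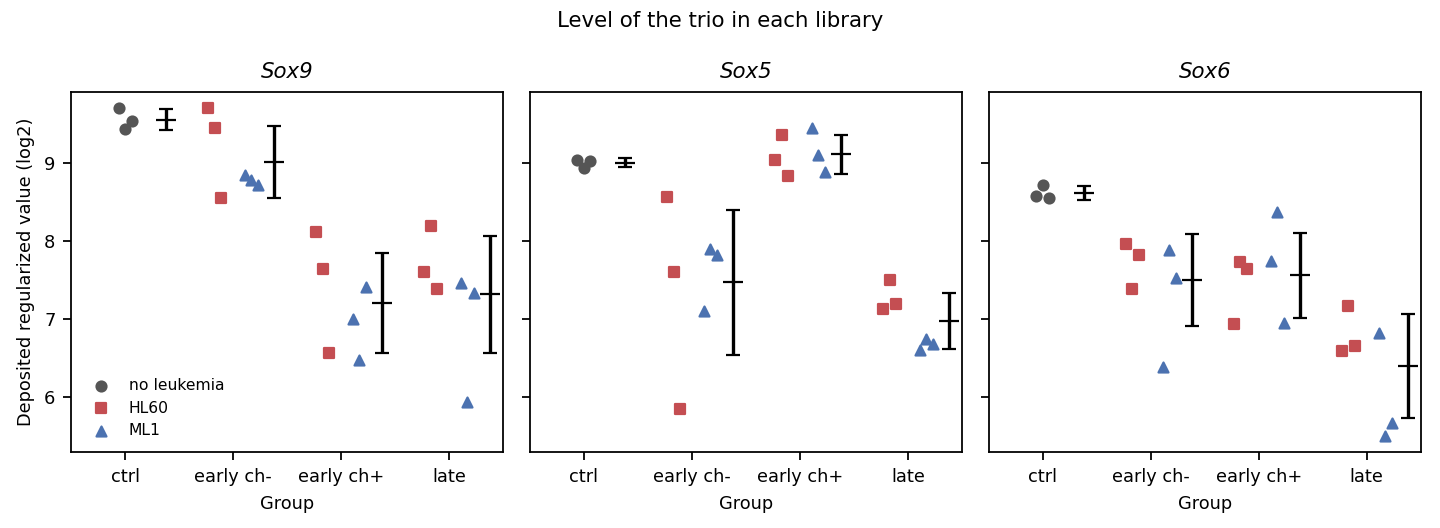
Regularized log2 values of Sox9, Sox5 and Sox6 in each of the 21 libraries by group, with 1 point per library marked by cell line and a bar for the mean with its SD. Sox9 lay between 6.47 and 8.12 in early ch+, below all ctrl and early ch- libraries, whereas Sox5 lay between 8.84 and 9.45 in early ch+, on both sides of ctrl.

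By group means, the order of Sox9 from high to low was ctrl (9.56 ± 0.14, SD, n = 3), early ch- (9.01 ± 0.46, n = 6), late (7.32 ± 0.75, n = 6) and early ch+ (7.20 ± 0.64, n = 6). Neither ctrl and early ch- nor late and early ch+ differed beyond the spread between libraries. For Sox5 the order was early ch+ (9.12 ± 0.25), ctrl (9.01 ± 0.06), early ch- (7.47 ± 0.93) and late (6.98 ± 0.36), where early ch+ and ctrl, and early ch- and late, did not differ beyond the spread. For Sox6 it was ctrl (8.62 ± 0.09), early ch+ (7.56 ± 0.55), early ch- (7.50 ± 0.59) and late (6.40 ± 0.67), where the early groups did not differ beyond the spread.

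Levels of the members can be compared with each other only per length. On the linear scale and per kilobase of annotated exon (4135 bases for Sox9, 14376 for Sox5 and 14832 for Sox6), Sox9 stood at 183 ± 17.5 in ctrl, Sox5 at 35.8 ± 1.5 and Sox6 at 26.6 ± 1.7 (SD, n = 3). In early ch-, Sox9 was at 131 ± 45.0, Sox5 at 14.3 ± 7.5 and Sox6 at 12.9 ± 4.2 (n = 6). Sox9 was thus the most abundant member per length in both of these groups. In early ch+ the levels per kilobase of Sox9 and Sox5 were close, at 38.8 ± 17.5 and 39.1 ± 6.8, and Sox6 was at 13.6 ± 5.2 (n = 6). In late, Sox9 was at 42.5 ± 18.0, Sox5 at 9.0 ± 2.3 and Sox6 at 6.2 ± 2.5 (n = 6). Exon lengths are those of all annotated exons joined, and which transcripts were present is unknown.

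The comparison of early ch+ cells with ctrl asks what differs in mesenchymal cells near the leukemia. In early ch+, Sox9 fell 5.13-fold, with all 6 libraries below ctrl, Sox5 was at the ctrl level, and Sox6 was 2.08-fold lower. The log2 change of Sox9 was -2.36 (SE 0.36, 95% interval -3.09 to -1.63, adjusted p = 7.76e-05, limma with Benjamini-Hochberg adjustment over the 12976 genes). That of Sox5 was 0.11 (95% interval -0.58 to 0.80, limma with Benjamini-Hochberg, adjusted p = 0.909). For Sox6 it was -1.06 (95% interval -1.78 to -0.33, limma with Benjamini-Hochberg, adjusted p = 0.0965), just past the threshold of 0.1. Thus 2 of 3 members passed the threshold, beside 6.17% of all genes tested, 2.75% lower and 3.41% higher. The Sox6 call rests on the settings: it was kept in 10 of 33 alternatives, with an adjusted p between 0.0156 and 0.264. Leaving out 1 library ended it in 16 of 21 cases, among them each of ctrl replicates 373, 374 and 375 and early ch+ replicates 523, 524, 525, 538 and 541, with changes from -1.22 to -0.93. In bulk samples, fewer cells that express a gene and less RNA of it per cell cannot be told apart.

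The early ch- cells come from the same stage but had not taken up the red protein. Here Sox5 was 2.89-fold lower than in ctrl, in 6 of 6 libraries, while Sox9 was near ctrl. The log2 change of Sox5 was -1.53 (SE 0.34, 95% interval -2.23 to -0.84, limma with Benjamini-Hochberg, adjusted p = 0.0162). Sox9 gave -0.55 (95% interval -1.28 to 0.18, limma with Benjamini-Hochberg, adjusted p = 0.581), with 4 of 6 libraries below all ctrl libraries. Sox6 gave -1.12 (95% interval -1.85 to -0.39, limma with Benjamini-Hochberg, adjusted p = 0.143) and did not pass. All 6 of its early ch- libraries lay below ctrl. So 1 of 3 members was called, beside 1.92% of all genes, 0.786% lower and 1.13% higher. Sox6 passed when the compared groups were fitted alone (adjusted p = 0.0649) and when the 7 groups by line were fitted (adjusted p = 0.0818, limma). Over all 33 alternatives its adjusted p lay between 0.0649 and 0.335.

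In the direct comparison of the early groups, in which ctrl libraries enter only through the filter and the shared estimate of spread, Sox9 and Sox5 went opposite ways. Sox9 was 3.50-fold lower in early ch+ than in early ch-, and Sox5 was 3.12-fold higher, each with all 6 libraries of one group beyond all 6 of the other. The share of all genes that separated so was not counted. The log2 difference of Sox9 was -1.81 (SE 0.29, 95% interval -2.40 to -1.22, limma with Benjamini-Hochberg, adjusted p = 8.22e-05). That of Sox5 was 1.64 (SE 0.28, 95% interval 1.08 to 2.21, limma with Benjamini-Hochberg, adjusted p = 0.000166). Sox6 differed by 0.06 (95% interval -0.53 to 0.66, limma with Benjamini-Hochberg, adjusted p = 0.95), and the sign of this small value turned in single alternatives. Of the genes tested, 6.26% were called in this comparison and 2.68% were lower in early ch+. Both calls held in all 33 alternatives, with log2 differences of -1.99 to -1.66 for Sox9 and 1.32 to 1.86 for Sox5.

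At the late stage all 3 members were lower than in ctrl, each in 6 of 6 libraries. Sox9 fell 4.73-fold, Sox6 fell 4.65-fold and Sox5 fell 4.08-fold. The log2 change was -2.24 for Sox9 (95% interval -2.97 to -1.51, limma with Benjamini-Hochberg, adjusted p = 2.64e-05). It was -2.22 for Sox6 (95% interval -2.94 to -1.49, limma with Benjamini-Hochberg, adjusted p = 2.94e-05) and -2.03 for Sox5 (95% interval -2.72 to -1.34, limma with Benjamini-Hochberg, adjusted p = 5.28e-05). In late, 21.5% of all genes differed from ctrl, 11.4% lower and 10.2% higher. Rescaling each library to the mean linear sum moves the median change of all genes from 0.02 to 0.71 in late against ctrl, from 0.02 to 0.63 in late against early ch+, from 0.00 to 0.77 in late against early ch- and from -0.02 to 0.13 in early ch+ against early ch-. It also moves the calls of late against ctrl to 60.0% of all genes higher and 3.98% lower, those of late against early ch+ to 65.1% and 4.53%, and those of late against early ch- to 74.6% and 3.66%. With CT010467.1 left out of the sums, a setting chosen after seeing the data, the medians in late were 0.53 against ctrl, 0.50 against early ch+ and 0.52 against early ch-, and the calls against ctrl were 44.1% higher and 5.07% lower. Under both rescalings all 3 members were still called lower in late than in ctrl. Their log2 changes were no closer to 0 than -1.34 for Sox5, -1.53 for Sox6 and -1.55 for Sox9 in any of the 33 alternatives, and -1.52, -1.71 and -1.73 with that gene left out.

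Between the stages, the members again went separate ways. From early ch+ to late, Sox5 fell 4.41-fold and Sox6 fell 2.24-fold, while Sox9 was at the same low level. The log2 difference was -2.14 for Sox5 (95% interval -2.71 to -1.57, limma with Benjamini-Hochberg, adjusted p = 9.39e-07), with no overlap between the groups. It was -1.16 for Sox6 (95% interval -1.76 to -0.57, limma with Benjamini-Hochberg, adjusted p = 0.00453) and 0.12 for Sox9 (95% interval -0.48 to 0.71, limma with Benjamini-Hochberg, adjusted p = 0.862). So 2 of 3 members were called, beside 19.7% of all genes, 10.9% lower in late. After rescaling to library sums Sox9 stood 0.73 higher in late (limma, adjusted p = 0.0261, over all 33 alternatives 0.0261 to 0.992), against a median of all genes of 0.63, and Sox5 and Sox6 were still called at -1.52 and -0.55 (limma, adjusted p = 5.59e-05 and 0.0963). With CT010467.1 left out of the sums, the values were 0.60 for Sox9, -1.65 for Sox5 and -0.68 for Sox6 (limma, adjusted p = 0.0799, 2.73e-05 and 0.0527). Sox6 missed the threshold with HL60 libraries and ctrl alone, at -0.63 (limma, adjusted p = 0.216, over all 33 alternatives 0.00157 to 0.216).

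From early ch- to late, it was Sox9 that fell most. It was 3.23-fold lower in late, with a log2 difference of -1.69 (95% interval -2.29 to -1.10, limma with Benjamini-Hochberg, adjusted p = 6.02e-05) and no overlap. Sox6 was 2.14-fold lower, at -1.10 (95% interval -1.69 to -0.50, limma with Benjamini-Hochberg, adjusted p = 0.00673). Sox5 differed by -0.50 (95% interval -1.06 to 0.07, limma with Benjamini-Hochberg, adjusted p = 0.25) and was higher in early ch- in 27 of 36 pairs of libraries. Thus 2 of 3 members were called, beside 22.5% of all genes, 12.3% lower in late. The Sox5 value depends on single HL60 libraries of early ch-: it was -0.82 without replicate 529 (limma, adjusted p = 0.0054) and -0.28 without replicate 527 (adjusted p = 0.558). Over all 33 alternatives the adjusted p for Sox5 lay between 0.0054 and 0.971. After rescaling to library sums Sox9 was still called at -0.92 (limma, adjusted p = 0.00518), Sox5 turned to 0.27, and Sox6 missed the threshold at -0.33 (limma, adjusted p = 0.292, over all 33 alternatives 0.000803 to 0.292), all below the median of all genes of 0.77. With CT010467.1 left out of the sums, Sox9 was at -1.17, Sox5 at 0.03 and Sox6 at -0.57 (limma, adjusted p = 0.00159, 0.936 and 0.0947).

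The comparisons with ctrl share the same 3 libraries, so their values stand side by side and not as independent results. With the cell lines apart, Sox9 in early ch+ changed by -2.11 with HL60 (limma with Benjamini-Hochberg, adjusted p = 0.000606) and by -2.60 with ML1 (adjusted p = 2.64e-05). Sox5 in early ch+ differed from ctrl by 0.08 with HL60 and 0.14 with ML1 (limma with Benjamini-Hochberg, adjusted p = 0.95 and 0.9). Sox6 in early ch+ was at -1.19 with HL60 and -0.93 with ML1 (limma with Benjamini-Hochberg, adjusted p = 0.0855 and 0.197). Of all genes, 5.33% were called with HL60 and 6.69% with ML1. The HL60 value of Sox6 missed the threshold without any 1 of the 3 ctrl libraries or of the 3 HL60 early ch+ libraries, with changes of -1.33 to -0.94. The ML1 value passed it without replicate 539, at -1.27 (limma, adjusted p = 0.0976), and its adjusted p over all 30 alternatives lay between 0.0976 and 0.558.

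For early ch- by line, Sox5 changed by -1.67 with HL60 (limma with Benjamini-Hochberg, adjusted p = 0.0202) and by -1.40 with ML1 (adjusted p = 0.0615). Sox6 was at -0.89 with HL60 and changed by -1.35 with ML1 (limma with Benjamini-Hochberg, adjusted p = 0.369 and 0.0741). Sox9 was at -0.32 and -0.77 (limma with Benjamini-Hochberg, adjusted p = 0.812 and 0.375). Of all genes, 1.57% were called with HL60 and 2.34% with ML1. Single libraries carry these calls. Without HL60 replicate 529, Sox5 with HL60 was at -0.92 (limma, adjusted p = 0.202, over all 30 alternatives 0.000233 to 0.202) and Sox9 with HL60 at 0.02. Without ML1 replicate 543, Sox5 with ML1 was at -1.14 (limma, adjusted p = 0.24, over all 30 alternatives 0.00232 to 0.269) and Sox6 with ML1 at -0.91 (limma, adjusted p = 0.345, over all 30 alternatives 0.0466 to 0.345). Both ML1 calls were also lost without any 1 of ctrl replicates 373, 374 and 375, where Sox5 was at -1.37, -1.43 and -1.39 and Sox6 at -1.37, -1.30 and -1.38.

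In late, all 3 members were lower than in ctrl with either line. With HL60 the log2 change was -1.83 for Sox9, -1.73 for Sox5 and -1.82 for Sox6 (limma with Benjamini-Hochberg, adjusted p = 0.000774, 0.00204 and 0.00127). With ML1 it was -2.65 for Sox9 and -2.62 for Sox6 (limma with Benjamini-Hochberg, adjusted p = 2.18e-06 and 4.37e-06), and Sox5 was 5.04-fold lower (adjusted p = 2.41e-05). Of all genes, 13.7% were called with HL60 and 22% with ML1. The contrast of early ch+ with early ch- was also found with each line. Sox9 differed by -1.79 with HL60 and -1.83 with ML1 (limma with Benjamini-Hochberg, adjusted p = 0.00318 and 0.00253), and Sox5 by 1.75 and 1.54 (adjusted p = 0.00544 and 0.0167). Sox6 differed by -0.29 with HL60 and 0.42 with ML1 (limma with Benjamini-Hochberg, adjusted p = 0.837 and 0.686). Of all genes, 3.92% were called with HL60 and 4.25% with ML1. Without ML1 replicate 543 of early ch-, Sox5 with ML1 was at 1.28 (limma, adjusted p = 0.13, over all 30 alternatives 0.000341 to 0.149) and Sox6 with ML1 at -0.02. Without HL60 replicate 529 of early ch-, Sox5 with HL60 was at 1.00, and it was called in all 30 alternatives.

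Tested against each other, the cell lines differed in none of the 15 tests of the trio at an adjusted p under 0.1 (limma with Benjamini-Hochberg), and 2 of the 15 had an unadjusted p under 0.05. Those were in late, where ML1 was below HL60 by -0.82 for Sox9 (95% interval -1.57 to -0.06, limma with Benjamini-Hochberg, adjusted p = 0.377) and by -0.81 for Sox6 (95% interval -1.59 to -0.03, adjusted p = 0.424). With 1 library left out these ranged from -1.09 to -0.33 for Sox9, the smallest without ML1 replicate 582, and from -1.22 to -0.56 for Sox6. The late value for Sox5 was -0.60 (limma with Benjamini-Hochberg, adjusted p = 0.681), and its 3 HL60 libraries all lay above the 3 ML1 libraries. In early ch+ the ML1 minus HL60 differences were -0.49 for Sox9, 0.07 for Sox5 and 0.26 for Sox6, and in early ch- they were -0.45, 0.28 and -0.46 in the same order. The difference between lines of early ch+ against early ch- was -0.04 for Sox9, -0.21 for Sox5 and 0.72 for Sox6, and that of late against early ch+ was -0.33, -0.67 and -1.07. The share of all genes called between the lines was 0.0154% in early ch+, 0.0539% in early ch-, 4.09% in late, 0.00771% for the first of these differences of differences and 2.5% for the last. Signs of values near 0 turned without single libraries, among them Sox5 in early ch- at -0.47 without HL60 replicate 529.

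Whether the members changed by different amounts was tested on the difference of their log2 values within each library, in 9 two-sided exact permutation tests with Benjamini-Hochberg adjustment, which take the libraries as independent. Sox5 minus Sox9 was 1.91 ± 0.66 in early ch+ and -1.54 ± 0.71 in early ch- (SD, n = 6 each), with no overlap. Between those groups it shifted by 3.45 (exact permutation p = 0.00216, the smallest that 6 against 6 libraries can give, adjusted p = 0.00974). Sox5 minus Sox6 was 1.55 ± 0.51 in early ch+ and -0.03 ± 0.99 in early ch-, a shift of 1.58 without overlap (exact permutation p = 0.00216, adjusted p = 0.00974). Sox6 minus Sox9 was 0.36 ± 1.12 in early ch+ and -1.51 ± 0.69 in early ch-, a shift of 1.87 with overlap (exact permutation p = 0.00866, adjusted p = 0.0214).

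Against ctrl, early ch+ was shifted in Sox5 minus Sox9 and Sox5 minus Sox6. Sox5 minus Sox9 was -0.56 ± 0.08 in ctrl (SD, n = 3), a shift of 2.47 (exact permutation p = 0.0119, the smallest that 6 against 3 libraries can give, adjusted p = 0.0214). Sox5 minus Sox6 was 0.38 ± 0.15 in ctrl, a shift of 1.17 (exact permutation p = 0.0119, adjusted p = 0.0214). Sox6 minus Sox9 was -0.94 ± 0.21 in ctrl, and the shift of 1.30 did not pass (exact permutation p = 0.0952, adjusted p = 0.143). Without HL60 replicate 523 it was 1.61 (exact permutation, adjusted p = 0.0536, over all leave-outs 0.0536 to 0.321). In late the differences were close to those in ctrl: the shift was 0.21 for Sox5 minus Sox9, 0.19 for Sox5 minus Sox6 and 0.02 for Sox6 minus Sox9 (exact permutation p = 0.714, 0.583 and 0.905, adjusted p = 0.804, 0.75 and 0.905). How far the regularization of the deposited values moved these differences was not tested.

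**Figure D2:**
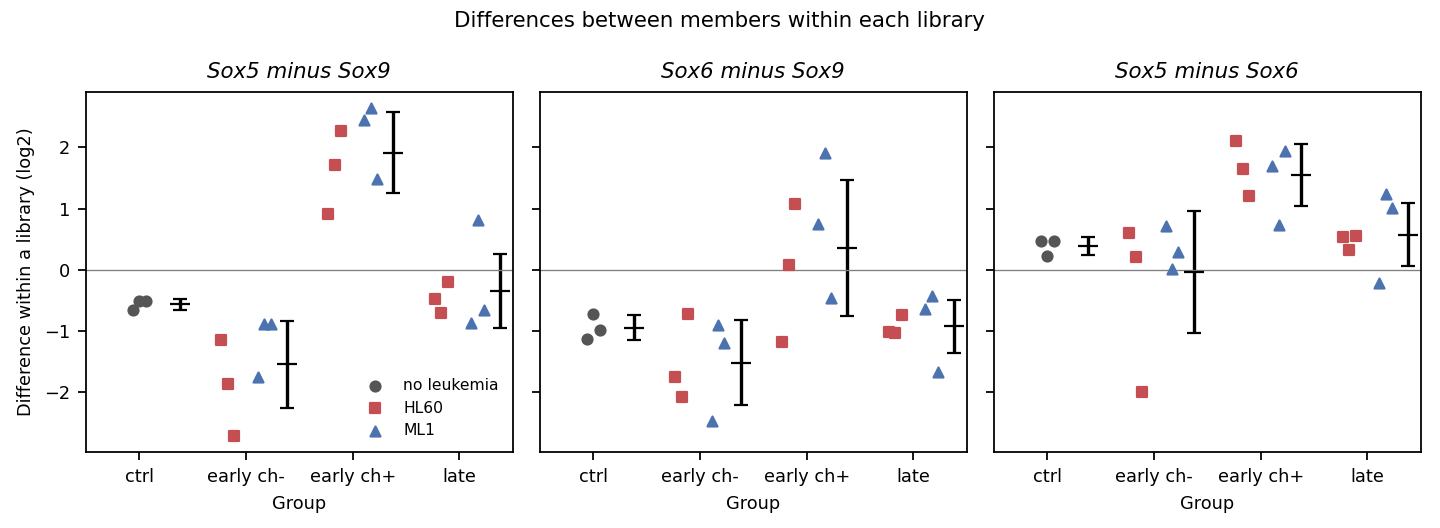
Differences of log2 values between pairs of trio members within each of the 21 libraries, by group, with 1 point per library marked by cell line and a bar for the mean with its SD. Sox5 minus Sox9 averaged 1.91 in early ch+, against -0.56 in ctrl, -1.54 in early ch- and -0.35 in late.

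Within groups, no pair of members rose and fell together at the test used. The deviations from the 7 group means over 21 libraries gave a Pearson r of 0.41 for Sox5 and Sox9 (permutation p = 0.122, adjusted over 3 pairs 0.367) and a Spearman rho of 0.25 (permutation p = 0.334). Without the 2 libraries farthest from the median of Sox5, HL60 replicates 527 and 529 of early ch-, r was 0.12. Sox5 and Sox6 gave an r of 0.23 (permutation p = 0.256, adjusted p = 0.384), a rho of 0.33 (permutation p = 0.239) and 0.46 without the same 2 libraries. Sox6 and Sox9 gave an r of -0.05 (permutation p = 0.885, adjusted p = 0.885), a rho of -0.00 (permutation p = 0.991) and 0.08 without ML1 replicates 543 and 541.

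The genes whose values over the 21 libraries were most like those of each member give its pattern a wider frame, as a description in which group differences dominate. For Sox9 they were Chadl (Pearson r 0.944), Acan (0.94), Ntrk2 (0.935), Hapln1 (0.93) and Col9a1 (0.928). Chadl, for example, had mean log2 values of 7.29 in ctrl, 6.27 in early ch-, 4.22 in early ch+ and 4.44 in late. For Sox5 they were Cpq (r 0.904), Sv2c (0.892), Ssc5d (0.891), Fn1 (0.89) and Fbln7 (0.885). These 5 had their highest group mean in early ch+ and their lowest in late, as Sox5 did. Sv2c, which encodes a synaptic vesicle glycoprotein, had means of 7.27 in ctrl, 4.49 in early ch-, 8.42 in early ch+ and 3.99 in late. Fn1, which encodes fibronectin, had means of 16.63, 15.03, 17.63 and 14.20 in the same order. For Sox6 they were Pla2g5 (r 0.87), Fxyd6 (0.85), Pthlh (0.839), Vit (0.835) and Ppp2r5a (0.822), all highest in ctrl and lowest in late. Pthlh, which encodes a growth plate signal, had means of 5.49 in ctrl, 4.56 in early ch-, 4.91 in early ch+ and 3.75 in late.

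Of 15 other SOX genes listed, 13 are in the table and 6 passed the filter. Sox2, Sox7, Sox11, Sox15, Sox17, Sox21 and Sox30 were below it, with means from -2.14 (Sox21) to 3.10 (Sox7), and Sox3 and Sox14 are not in the table. In early ch+ against ctrl, 3 of 6 were lower and 0 higher (median change -0.87, all genes 0.01), beside 2.75% of all genes lower and 3.41% higher. Sox8, a SOXE gene like Sox9, changed by -2.04 (limma with Benjamini-Hochberg, adjusted p = 0.0175). Sox10, the SOXE gene of neural crest and glia, also changed by -2.04 (limma with Benjamini-Hochberg, adjusted p = 0.00334). Sox13, the remaining SOXD gene, changed by -1.32 (limma with Benjamini-Hochberg, adjusted p = 0.042). The count was 1 of 6 without ctrl replicate 373 and 1 of 6 without ctrl replicate 374. Log2 values of Sox10 ranged from 3.6 to 6.56 in ctrl and from 3.07 to 3.33 in early ch+.

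The same 3 genes were lower in early ch+ than in early ch-: Sox8 by -1.49, Sox10 by -2.20 and Sox13 by -1.35 (limma with Benjamini-Hochberg, adjusted p = 0.032, 7.08e-05 and 0.00587), 3 of 6 beside 2.68% of all genes lower. So the SOXD genes did not move as a block there, since Sox13 was lower, Sox5 higher and Sox6 was not called. In early ch- against ctrl, 0 of 6 passed in limma and 1 of 6 had an unadjusted p under 0.05 (median -0.00, all genes 0.01). In late against ctrl, 1 of 6 was called, Sox4 at 0.61 (limma with Benjamini-Hochberg, adjusted p = 0.00305), and the median was -0.33 beside 0.02 for all genes, of which 10.2% were higher and 11.4% lower. That count was 4 of 6 without ctrl replicate 375 and 2 of 6 without HL60 late replicate 397, and 2 after rescaling. Sox4 had the highest values of the list, with means of 10.00 in ctrl, 10.27 in early ch-, 10.12 in early ch+ and 10.61 in late. From early ch+ to late, Sox10 rose by 1.53 and Sox4 by 0.49 (limma with Benjamini-Hochberg, adjusted p = 0.00189 and 0.00349), 2 of 6 genes, beside 8.79% of all genes higher, and after rescaling 6 of 6 were higher, beside 65.1%. The Sox10 values against early ch- and from early ch+ to late rest on an early ch+ mean below the filter.

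Direct SOX9 targets of cartilage were described from a list of 16 genes, of which 15 passed the filter and Matn1, with a mean log2 value of 2.83, did not. In early ch+ against ctrl, 13 of 15 were lower (median change -3.26, all genes 0.01), beside 2.75% of all genes. In early ch-, 0 of 15 passed in limma and 2 had an unadjusted p under 0.05 (median -0.74, all genes 0.01). In late, 15 of 15 were lower (median -3.55, all genes 0.02), beside 11.4% of all genes, also after rescaling. The counts in early ch+ and late were the same whichever library was left out. Summed on the linear scale, the 16 genes, with Col2a1 the most abundant over all libraries, stood at a median of 163573 in ctrl (lowest 130469.8, highest 229511), 116951 in early ch- (89474 to 145555), 57930.3 in early ch+ (45943 to 75335) and 16074 in late (6209 to 33047). In early ch+, however, Col11a1 had the highest linear mean of them, at 30208 beside 13005 for Col2a1. Neither ranking is by values divided by length.

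Acan, which encodes the proteoglycan aggrecan, had log2 values from 11.16 to 12.41 in ctrl, 10.37 to 11.95 in early ch-, 6.49 to 9.91 in early ch+ and 7.24 to 9.43 in late. Its early ch+ and late libraries all lay below the ctrl and early ch- libraries, as for Sox9. It changed by -3.95 in early ch+ (limma with Benjamini-Hochberg, adjusted p = 1.82e-05), a 15.5-fold decrease, and by -3.64 in late (adjusted p = 1.01e-05). Col2a1, the chain of collagen II, went from 16.29 ± 0.60 in ctrl (SD, n = 3) to 15.39 ± 0.53 in early ch-, 13.57 ± 0.56 in early ch+ and 12.35 ± 1.13 in late (n = 6 each). Its change was -2.72 in early ch+ and -3.94 in late (limma with Benjamini-Hochberg, adjusted p = 0.00015 and 1.48e-07). Hapln1, the link protein that holds aggrecan to hyaluronan, changed by -3.26 and -3.61, and Comp, a matrix glycoprotein, by -2.57 and -3.34. Wwp2, a ubiquitin ligase gene whose intron holds a microRNA of cartilage, changed by -1.03 and -1.48.

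The collagen XI chains were not called in early ch+, with Col11a1 at -0.59 and Col11a2 at -0.69 (limma with Benjamini-Hochberg, adjusted p = 0.467 and 0.466). For both genes all early ch+ libraries lay below all ctrl and early ch- libraries. The fit of 4 groups does not separate the lines, and its spread also takes in the late libraries. There, ML1 was below HL60 by -2.23 for Col11a1 and -2.58 for Col11a2. Whether this bears on the missed calls, and so on the count of 13 of 15, was not tested. Col11a1 ranged from 14.72 to 14.99 in early ch+, 15.2 to 15.64 in ctrl and 15.16 to 15.37 in early ch-. For Col11a2 these ranges were 13.27 to 13.84, 14.18 to 14.52 and 13.88 to 14.38. Both chains fell in late, Col11a1 by 3.31 and Col11a2 by 3.55 on the log2 scale. Col11a1 had mean log2 values of 15.47 in ctrl, 15.27 in early ch-, 14.88 in early ch+ and 12.16 in late. From early ch+ to late, 3 of 15 targets were lower (median 0.22, all genes 0.02), beside 10.9% of all genes, namely Col11a2 at -2.87, Col11a1 at -2.72 and Col2a1 at -1.22. This count was 5 without HL60 late replicate 398 and 5 without 399. After rescaling, 7 targets were higher and 2 lower, beside 65.1% and 4.53% of all genes. In early ch+ against early ch-, 13 of 15 targets were lower (median -2.35, all genes -0.02), beside 2.68% of all genes, and in late against early ch-, 15 of 15 (median -2.90, all genes 0.00), beside 12.3%.

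Between the lines in late, 9 of 15 targets were lower with ML1 than with HL60 and 0 higher (median -1.94, all genes -0.00), beside 3.16% of all genes lower. In early ch+ and early ch- the count was 0 of 15 in limma, with 1 and 0 at an unadjusted p under 0.05. Col2a1 in late averaged 13.34 ± 0.36 with HL60 and 11.36 ± 0.34 with ML1, and Col11a1 averaged 13.27 ± 0.19 and 11.05 ± 0.20 (SD, n = 3 each). The members of the trio were not called in this comparison, and whether targets and trio differ there was not tested.

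**Figure D3:**
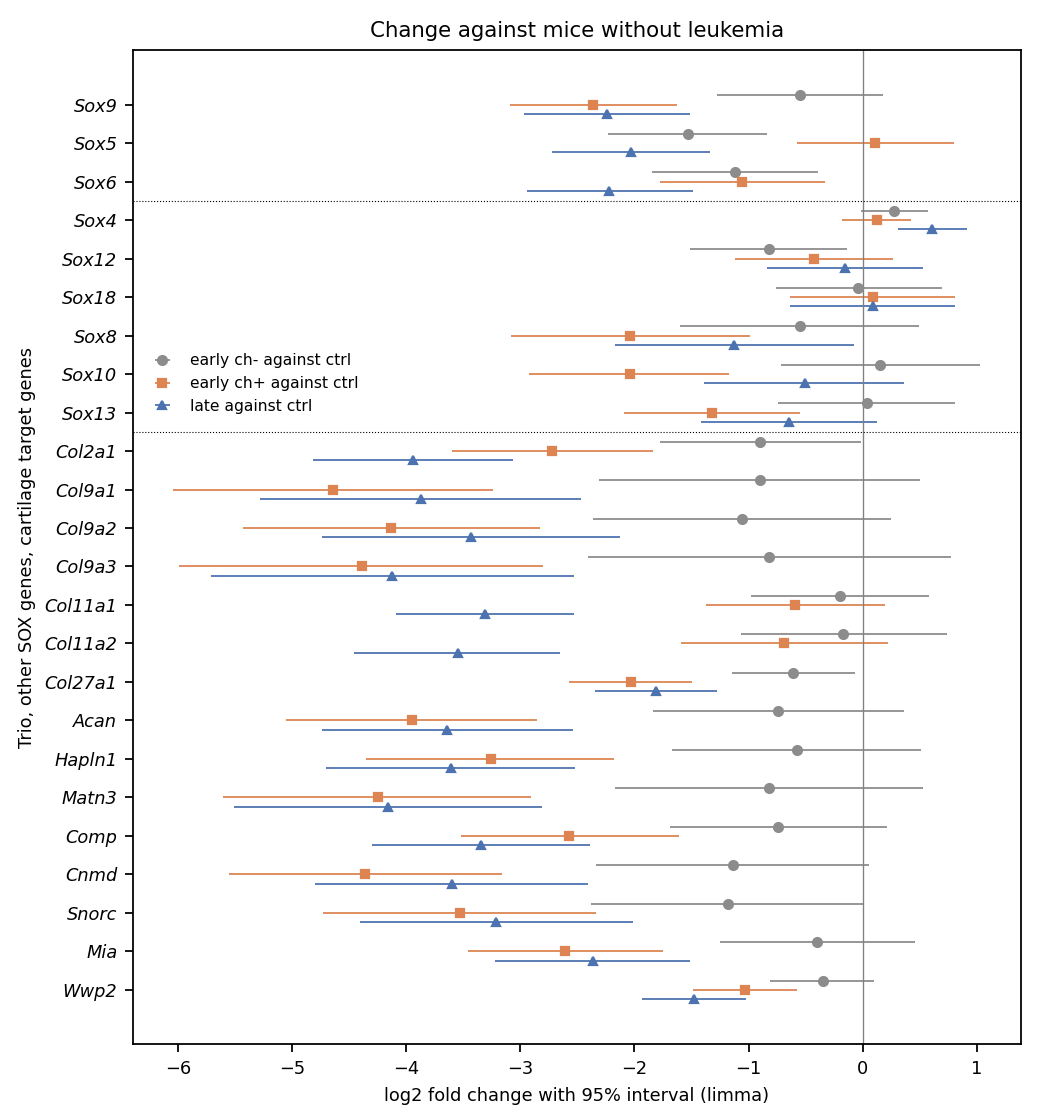
Log2 changes against ctrl with their 95% intervals for the trio, 6 other SOX genes and 15 SOX9 target genes, in early ch-, early ch+ and late. In early ch+ 13 of 15 targets were lower with Sox9 at -2.36 and Sox5 at 0.11, and in late all 15 targets and all 3 members of the trio were lower; after rescaling the late counts of the targets and the trio were the same.

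Genes of signals known to act upstream of the trio numbered 21, of which 17 passed the filter and Gdf5, Bmpr1b, Ihh and Nkx3-2 did not. In early ch+ against ctrl, 3 of 17 were lower (median -0.30, all genes 0.01), beside 2.75% of all genes: the Hedgehog receptor gene Ptch1 at -1.52, the parathyroid hormone receptor gene Pth1r at -0.63 and the beta-catenin gene Ctnnb1 at -0.59 (limma with Benjamini-Hochberg, adjusted p = 1.48e-05, 0.0687 and 0.026). The count was 1 without ctrl replicate 375. In early ch-, 0 of 17 passed in limma and 2 had an unadjusted p under 0.05. In late, 6 of 17 were lower (median -0.36, all genes 0.02), beside 11.4% of all genes, with Fgfr3 at -1.84, Pthlh at -1.74, Pth1r at -1.67, Ptch1 at -1.30, the Hedgehog effector Gli1 at -1.27 and Ctnnb1 at -0.92. After rescaling, 7 were higher and 4 lower in late, beside 60.0% and 3.98% of all genes.

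Of 13 partners and cofactors of SOX9, 12 passed the filter and Foxa2 did not. Arid5b, which encodes a SOX9 coactivator, was the called gene in early ch+, at 0.91 (limma with Benjamini-Hochberg, adjusted p = 0.00331), 1 of 12 beside 6.17% of all genes. It was also the called gene in early ch-, at 0.68, but 0 of 12 were called there without any 1 of the 3 ctrl libraries or of ML1 replicates 543 and 544, and 0 after rescaling. In late, 3 of 12 were higher and 2 lower, beside 10.2% and 11.4% of all genes: Arid5b at 1.21, Foxc1 at 0.78 and Arid5a at 0.61, and Ppargc1a at -1.95 and Smad3 at -0.55. That count was 3 without any 1 of ctrl replicates 374 and 375, HL60 replicates 398 and 399 and ML1 replicates 582 and 583, and after rescaling 9 were higher and 1 lower, beside 60.0% and 3.98% of all genes. Of 10 genes of chondrocyte hypertrophy, which follows the stage that SOX9 maintains, 9 passed the filter, and 2 were lower in early ch+, the hypertrophic collagen Col10a1 at -3.12 and Panx3 at -1.74, beside 2.75% of all genes. The count was 1 without ctrl replicate 373. In early ch-, 0 of 9 passed in limma, and 0 had an unadjusted p under 0.05. In late, 2 were higher, Mmp13 at 1.34 and Spp1 at 0.55, and 5 lower, beside 10.2% and 11.4% of all genes, and after rescaling 4 were higher and 4 lower, beside 60.0% and 3.98%.

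Markers of other cell types that such a sort may hold moved with several of these results, and their part in them was not tested. For the counts below, the shares of all genes called were 6.17% in early ch+, 1.92% in early ch- and 21.5% in late against ctrl, and 6.26% in early ch+ against early ch-. These shares are those with the filter, and the counts with no filter have no share of all genes beside them. After rescaling, 60.0% were higher and 3.98% lower in late against ctrl. Each gene named as most abundant is so over all libraries, by values not divided by length. With the low Sox9 of early ch+ moved smooth muscle and Schwann cell markers. In the same comparison with ctrl, blood, red cell, skeletal muscle and CAR cell markers were called higher, as given below. All members share these comparisons, so a list cannot be tied to a single member. Of 8 smooth muscle markers, 6 were lower in early ch+ than in ctrl, 6 lower than in early ch- and 0 differed between early ch- and ctrl in limma (4 at an unadjusted p under 0.05). Their summed linear level, with Myh11 the most abundant, had a median of 17306 in ctrl (lowest 12599, highest 27342), 11604 in early ch- (8623 to 15701), 4619 in early ch+ (3744 to 6409.9) and 8166 in late (5349 to 9405). In late, 5 were lower than in ctrl, but 2 without ctrl replicate 374, and after rescaling 1 was higher and 2 lower. Of 6 Schwann cell markers, 5 passed the filter, Foxd3 did not, and Sox10 is one of them. In early ch+, 3 of 5 were lower than in ctrl, but 1 without ctrl replicate 374, and against early ch- 4 were lower and 1, S100b, higher. Their sum, with S100b the most abundant, had a median of 388 in ctrl (lowest 349, highest 426), 323 in early ch- (289.5 to 442), 395 in early ch+ (229 to 462) and 247 in late (196 to 378).

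Markers of blood and red cells, which the preparation was meant to remove, moved with the low Sox6 of early ch+ and with the low Sox5 of early ch-, where Sox6 was not called. None was called between early ch+ and early ch- (0 of 10 and 0 of 9 in limma, also at an unadjusted p under 0.05). Of 12 blood cell markers, 10 passed the filter, and Ctsg and Laptm5 did not. In early ch+ 10 of 10 and in early ch- 9 of 10 were higher than in ctrl, and in late 3 were lower, but 1 without ctrl replicate 375 and 0 after rescaling. With no filter, 9 of 12 were higher in early ch+ and 7 in early ch-. Their sum, with Lyz2 the most abundant, had a median of 501 in ctrl (lowest 290.3, highest 659), 2077 in early ch- (1722 to 3517), 2411 in early ch+ (1279 to 3160.0) and 222 in late (133 to 283). Of 10 red cell markers, 9 passed the filter and Gata1 did not. In early ch+ 9 of 9 and in early ch- 8 of 9 were higher, and in late 4 were lower. With no filter, 8 of 10 were higher in early ch+ and 8 in early ch-. Their sum, with Hbb-bs the most abundant, had a median of 446 in ctrl (lowest 343, highest 710.4), 7768 in early ch- (5114 to 10275), 8559 in early ch+ (4386 to 12962) and 108 in late (103 to 139).

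With the late fall of all 3 members moved osteoblast and CAR cell markers, the latter being genes of the reticular cells rich in Cxcl12. Of 12 osteoblast markers, 10 were lower in late than in ctrl, and 0 differed in early ch+ (0 at an unadjusted p under 0.05) or early ch- (1) in limma. Their sum, with Col1a1 the most abundant, had a median of 2076196 in ctrl (lowest 1893895, highest 2559109), 1929734 in early ch- (1598279 to 2166903), 1490272 in early ch+ (1414087 to 1696912) and 386792 in late (111188 to 755920.1). After rescaling, 9 were lower and 1 higher in late. Of 8 CAR cell markers, 7 were higher in late and 6 in early ch+ than in ctrl, the latter 3 without ctrl replicate 374. In early ch-, 0 of 8 passed in limma and 5 had an unadjusted p under 0.05. Their sum, with Cxcl12 the most abundant, had a median of 49832 in ctrl (lowest 42896, highest 69223), 73284 in early ch- (46375 to 90621), 96829 in early ch+ (76076 to 116066) and 115838 in late (106668 to 138692).

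With the lower Sox5 and Sox6 of late against early ch+ and the lower Sox9 and Sox6 of late against early ch- moved most of these lists. In late against early ch+, markers lower were 10 of 10 of blood cells (median -3.30, all genes 0.02), 9 of 9 of red cells (median -4.42), 10 of 12 of osteoblasts, 3 of 5 of endothelial cells, 1 of 8 of CAR cells and 1 of 5 of Schwann cells, and higher were 5 of 8 of smooth muscle, 4 of 8 of CAR cells and 3 of 5 of Schwann cells. Of all genes, 10.9% were lower and 8.79% higher. In late against early ch-, markers lower were 10 of 10 of blood cells, 8 of 9 of red cells, 11 of 12 of osteoblasts, 3 of 8 of smooth muscle, 1 of 5 of endothelial cells, 2 of 5 of Schwann cells and 1 of 8 of CAR cells, and 6 of 8 of CAR cells were higher. Of all genes, 12.3% were lower there and 10.2% higher. The endothelial count there was 0 and that of Schwann cells 1 in some of the leave-outs, and that of smooth muscle was 5 without HL60 late replicate 397. With no filter, 6 of 8 skeletal muscle markers were lower in late than in early ch+ and 7 of 8 lower than in early ch-. The tested blood and red cell markers had mean log2 values of 3.42 and 3.43 in late, near the filter. These means were 7.08 and 7.85 in early ch+ and 7.0 and 7.73 in early ch-. Their early values thus helped them to pass the filter. Without it, 11 of 12 blood and 9 of 10 red cell markers were lower in late than in early ch+. Against early ch- these counts were 12 of 12 and 8 of 10. After rescaling, with the filter kept, the counts of blood and red cell markers were the same as those given first. Against early ch+, 65.1% of all genes were then higher and 4.53% lower, with 8 smooth muscle markers higher, 3 osteoblast markers higher and 9 lower, 7 CAR cell markers higher and 1 lower, 4 Schwann cell markers higher and 0 lower, and 1 endothelial marker higher and 0 lower. Against early ch-, 74.6% of all genes were higher and 3.66% lower, with 3 smooth muscle markers higher and 1 lower, 1 osteoblast marker higher and 9 lower, 7 CAR cell markers higher and 0 lower, 1 Schwann cell marker higher and 0 lower, and 1 endothelial marker higher and 0 lower.

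Sox5 was high in early ch+, at the level of ctrl, and lower in early ch- and late. By counts of called genes, no marker list had this pattern. By median sum the Schwann cell list had it, at 388 in ctrl, 395 in early ch+, 323 in early ch- and 247 in late. The ranges of these sums overlapped. Its most abundant gene, S100b, had linear medians of 258.5, 345.1, 142.4 and 159.9 in the same order. The mean log2 value over the 5 tested Schwann cell markers did not follow Sox5, at 5.36 in ctrl, 4.27 in early ch+, 5.55 in early ch- and 4.91 in late. Against early ch-, 4 of these 5 were lower in early ch+ and 1, S100b, was higher. Whether Schwann cells had a part in the Sox5 values was not tested. Of 8 skeletal muscle markers, 4 passed the filter, and Myh1, Myh4, Tnnc2 and Tnni2 did not. Those 4 averaged 3.37 in ctrl and 2.62 in late, near or below the filter, and so passed it by their early values. With no filter, 5 of 8 were higher in early ch+ than in ctrl, 0 of 8 were called in early ch- and 1 was lower in late. With the filter these counts were 4, 0 (4 at an unadjusted p under 0.05, and 3 called without ctrl replicate 373) and 1, and the late count was 0 without ctrl replicate 373 and 0 after rescaling. Their sum, with Acta1 the most abundant, had a median of 61.0 in ctrl (lowest 58.6, highest 129), 201 in early ch- (87.0 to 362), 331 in early ch+ (156 to 633) and 41.3 in late (36.8 to 43.6). Of 8 endothelial markers, 5 passed the filter, and Tie1, Egfl7 and Cldn5 did not. In limma 0 of 5 differed from ctrl in any group, with 0 at an unadjusted p under 0.05 in early ch+, 0 in early ch- and 1 in late. Their sum, with Cdh5 the most abundant, had a median of 259.7 in ctrl (lowest 229, highest 313), 271 in early ch- (179 to 375), 339.5 in early ch+ (218 to 402) and 189.7 in late (161 to 297).

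The promoter windows of Sox5 and Sox6 are shown because these genes, close relatives, parted in early ch+. The table of RefSeq promoters on GRCm38.p6 held 2 of the 3 members, Sox5 with 1 window and Sox6 with 6, and 12 of the 16 targets. It was searched on both strands for ACAAAG and ACAATG, letters of the SOX binding motif, in the 250 bases before each start. The Sox5 window, chr6:143947107-143947356 on the minus strand, lies inside an intron of longer annotated transcripts. The Sox6 window, chr7:116038797-116038994 on the minus strand, is the first of its 6, trimmed of annotated exon to 198 bases. Capitals mark the letters found, which begin 154 bases before the start in Sox5 and 113 in Sox6.
Sox5: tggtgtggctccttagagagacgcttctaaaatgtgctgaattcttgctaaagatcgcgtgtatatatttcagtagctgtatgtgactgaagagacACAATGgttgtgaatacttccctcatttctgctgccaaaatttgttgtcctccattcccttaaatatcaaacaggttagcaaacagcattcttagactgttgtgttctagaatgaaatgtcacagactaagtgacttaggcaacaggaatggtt
Sox6: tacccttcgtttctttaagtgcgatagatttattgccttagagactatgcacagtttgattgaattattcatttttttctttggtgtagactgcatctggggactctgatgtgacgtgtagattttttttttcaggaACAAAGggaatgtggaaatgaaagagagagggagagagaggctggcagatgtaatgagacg
At least 1 of the 2 motifs was found in the window of Sox5 and in 5 of the 6 windows of Sox6. Of all 32851 windows 8292 held one, or 25.2%, and of all 27025 genes with a window 7608, or 28.2%, and none of the windows of the 12 targets did (0 of 12). A match is a description of letters and not of binding.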

How the data were processed

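Bulk RNA-seq of Nes-low mesenchymal cells in 21 libraries was used. The authors aligned reads to mm10 with STAR 2.5.1b, counted genes with RSEM 1.2.29 and used DESeq2 (1.10.1 in the labels) to normalize and regularize the counts. The deposited values are regularized log2 values from -2.33 to 22.44, although the methods text speaks of log10. Only a typical read yield is stated, depth per library is unknown, and precision was judged from replicates.

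Groups and lines came from titles and time points. Ensembl identifiers were matched to symbols (99.4%), and 12976 of 26852 genes with a mean of at least 3.32 (10 on the linear scale) were tested. All 21 libraries entered limma 3.58.1 (R 4.3.3) with 4 groups, or 7 groups for the lines apart, with a mean-variance trend, two-sided tests, Benjamini-Hochberg adjustment over all tested genes in each comparison and a threshold of 0.1. Differences between members were tested by exact permutation over libraries, and relations within groups by 100000 permutations, in Python 3.11.15 with SciPy 1.17.1. The method was tested on simulated data, and the outcome of that test is not given here.

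Genes were named by rule: the trio, tested genes of the SOX and SOX9 target lists, genes past the threshold and the most abundant gene of the other lists, Nes, Pecam1 and Ptprc, CT010467.1 as the gene with the highest value, and the 5 genes with the highest Pearson r to each member. Genes below the filter were named as such. The members and lists were chosen with earlier results of these data known, so no limma p was adjusted over a list alone. Permutation p-values were adjusted over the 9 tests of differences between members and over the 3 pairs of members. Lists were described by counts and medians only. Alternatives were no or a stricter filter, quantile normalization, rescaling to library totals, no trend, a robust fit, sample weights, other fits and thresholds, each line alone and each library left out. Rescaling to totals without CT010467.1 was added after seeing the data and is not counted among the 33 or 30 alternatives. A test on counts could not be run, since the table holds none. Other controls of the study are not in these files. Gene positions are those of Ensembl on GRCm38.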

Additional observations from a re-analysis of the deposited data

Results flagged for a closer look

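In 72 groups of 6 libraries over 24 named genes, 2 library values stood apart from the other 5. Such gaps also arise by chance. Sox6 was 6.39 in ML1 replicate 543 of early ch-, where the other libraries were at 7.39 to 7.97. Sox4 was 10.40 in ML1 replicate 544 of early ch-, where the others were at 10.22 to 10.26.

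Several SOX9 targets differed between the cell lines. In late, ML1 was below HL60 by a log2 difference of -2.10 for Matn3, -1.67 for Hapln1, -1.99 for Col2a1, -2.58 for Col11a2, -2.62 for Col9a3, -2.23 for Col11a1, -2.09 for Col9a2, -2.34 for Comp and -1.30 for Mia (limma with Benjamini-Hochberg, adjusted p from 1.85e-13 to 0.0971). From early ch+ to late, the change with ML1 minus that with HL60 was -1.40 for Col2a1, -2.51 for Col11a2, -2.19 for Col11a1 and -2.60 for Comp (limma with Benjamini-Hochberg, adjusted p from 1.58e-09 to 0.0942).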

How the results depend on the processing

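In all 33 alternatives, each of these kept its direction and its side of the threshold: Sox9 in early ch+ against ctrl (-2.60 to -2.11), Sox5 in early ch- against ctrl (-1.75 to -1.21), the 3 members in late against ctrl, Sox9 and Sox5 in early ch+ against early ch-, Sox5 in late against early ch+ and Sox9 in late against early ch-. A test on counts was not run, because the table holds no counts, and the early libraries were treated as independent. No paired analysis was run, because the groups share no replicate number and no label links early libraries of a shared marrow. Their title numbers run in parallel within each line, but pairs read from that would be guessed. The depth of each library is unknown, so weak expression cannot be told from absence. The cause of the changes below was not tested, except that a stricter threshold or fewer libraries or genes act by construction.

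Sox6 in early ch+ against ctrl missed the threshold at -1.06 with no filter, -1.03 with quantile normalization, -0.98 after rescaling, -1.06 with no trend, -1.05 with sample weights, -0.93 with ML1 and ctrl alone and -1.06 at a threshold of 0.05. With HL60 it missed at -1.19 with no filter, -1.15 with quantile normalization, -1.09 after rescaling, -1.19 with no trend, -1.17 with sample weights and -1.19 at 0.05. Sox6 in early ch- against ctrl passed at -1.12 in the fit of 7 groups and at -1.12 with the compared groups alone. Sox5 in HL60 early ch- against ctrl missed at -1.67 with no filter, with no trend and with the compared groups alone. In ML1 early ch-, Sox5 missed at -1.40 with no filter, with no trend and at 0.05, and at -1.30 with sample weights. There Sox6 missed at -1.35 with no filter, with no trend and at 0.05, and at -1.22 with sample weights, and Sox9 passed at -0.77 with the compared groups alone. Sox5 in ML1 early ch+ against early ch- missed at 1.54 with no filter.

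Sox6 in early ch+ against early ch- turned to -0.01 with sample weights and -0.29 with HL60 and ctrl alone. In late against early ch+, Sox9 passed at 0.73 after rescaling and turned to -0.05 with ML1 and ctrl alone, and Sox6 missed at -0.63 with HL60 and ctrl alone. In late against early ch-, Sox5 turned to 0.27 after rescaling and passed at -0.64 with sample weights and -0.94 with ML1 and ctrl alone, and Sox6 missed at -0.33 after rescaling. In a rescaling added after seeing the data, with CT010467.1 left out of the library totals, Sox6 missed at -1.03 in early ch+ against ctrl and at -1.15 with HL60, Sox9 passed at 0.60 in late against early ch+, and Sox5 turned to 0.03 in late against early ch-. The difference between lines of early ch+ against early ch- turned for Sox9 to 0.02 after rescaling and 0.11 with sample weights.

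Genes called were 512 at 0.05 in early ch+ against ctrl. In early ch- against ctrl they were 156 with sample weights and 156 at 0.05. In late against ctrl they were 8302 after rescaling and 1756 with HL60 and ctrl alone. In early ch+ against early ch- they were 478 with HL60 and ctrl alone and 460 with ML1 and ctrl alone. In late against early ch+ they were 9031 after rescaling and 1286 with HL60 and ctrl alone, and in late against early ch- 4515 with no filter, 10161 after rescaling and 1513 with HL60 and ctrl alone. With that gene left out of the totals, they were 6374 in late against ctrl, 7452 in late against early ch+ and 7672 in late against early ch-. SOX9 targets lower in early ch- against ctrl were 1 in the fit of 7 groups, 2 with the compared groups alone and 2 with ML1 and ctrl alone. In late against early ch+ they were 5 in the fit of 7 groups and 6 with ML1 and ctrl alone.

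With each library left out in turn, values that changed sides or sign ranged as follows. For Sox6 in early ch+ against ctrl it was -1.22 to -0.93, against early ch- -0.16 to 0.19, with HL60 against ctrl -1.33 to -0.94, with ML1 against ctrl -1.27 to -0.56, with ML1 against early ch- -0.02 to 0.79 and in ML1 early ch- against ctrl -1.66 to -0.91. For Sox9 it was -0.06 to 0.39 in late against early ch+ and -0.56 to 0.02 in HL60 early ch- against ctrl. For Sox5 it was -0.82 to -0.28 in late against early ch-, -0.07 to 0.20 in HL60 and 0.00 to 0.27 in ML1 early ch+ against ctrl, -2.29 to -0.92 in HL60 and -1.54 to -1.14 in ML1 early ch- against ctrl, and 1.28 to 1.69 in ML1 early ch+ against early ch-. For ML1 against HL60 it was -0.08 to 0.21 for Sox5 and -0.09 to 0.63 for Sox6 in early ch+, and -0.47 to 0.89 for Sox5 in early ch-. The differences between lines ranged from -0.82 to 0.54 for Sox5 and -0.48 to 0.31 for Sox9 in early ch+ against early ch-, and from -0.67 to 0.16 for Sox9 in late against early ch+. Within libraries, Sox5 minus Sox9 in late against ctrl ranged from -0.02 to 0.32, Sox6 minus Sox9 there from -0.07 to 0.17 and in early ch+ against ctrl from 0.99 to 1.61. Genes called in early ch- against ctrl ranged from 136 to 280, and targets lower in late against early ch+ from 3 to 5. Genes called by line moved by over 1.5 times in 28 of 115 other settings and 34 of 273 leave-outs, and counts of the other lists in 122 of 864 and 86 of 1512.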
